A study of Homo sapiens
Mus musculus with 8 samples.

Results

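Among the barcodes of 4 Chromium 3′ v3 libraries, 5094 carried little RNA that was mostly murine and poor in mitochondrial transcripts, out of 31786 barcodes with at least 500 unique molecular identifiers (UMIs) in these libraries and 38982 in the 7 libraries analysed. They were chosen by 3 measured values: a total of at least 500 and under 3000 UMIs, more than 80% of UMIs on mouse genes, and less than 2% of UMIs on the 13 genes of the mouse mitochondrial genome (mt-). They are called low-mt barcodes here. There were 979 in replicate 1, 76 in replicate 2, 3851 in replicate 3 and 188 in replicate 4.

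Each library held an equal mixture of 4 established lymphocyte lines: the mouse T cell line EL4, the mouse B cell line IVA12, and the human T cell lines Jurkat and TALL104. The labels name no treatment, and each line is an established culture, so a library is a mixture of cell lines and not a sample of tissue. Replicates 1 and 2 aimed at 3000 captured cells and replicates 3 and 4 at 6000. Replicates 1 and 3 came from one preparation of the mixture (F in the study's sample table) and replicates 2 and 4 from another (G), so the preparations are compared wherever the libraries split. Within each library, the low-mt barcodes were set beside 3 other kinds of barcode: cell barcodes (at least 10000 UMIs, over 80% mouse, under 10% mt-, with 2000, 929, 4305 and 2027 in replicates 1 to 4), mt-rich low-UMI barcodes (the same UMI range, over 80% mouse, 2% mt- or more, with 576, 195, 527 and 182), and barcodes with too few UMIs to hold a cell.

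Nuclei and cytoplasm carry different RNA. Malat1 and Neat1 are long noncoding RNAs that stay in the nucleus, Neat1 as the scaffold of the bodies called paraspeckles, whereas mRNAs for ribosomal proteins, the respiratory chain and the cytoskeleton are mostly in the cytoplasm, and mt- transcripts are made inside mitochondria. A droplet without a cell still takes up RNA that floats free in the suspension, and that RNA comes from all lines in the mixture. Levels are given as CPM, meaning UMIs per 1000000 UMIs on mouse genes outside the mitochondrial genome, so that the mt- share that chose the barcodes does not enter them.

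The libraries held 38116299 to 251164949 UMIs, and the low-mt barcodes together held 1001006, 89716, 3832734 and 146472 of them in replicates 1 to 4, so single-gene values of replicates 2 and 4 rest on few counts. Between pairs of libraries at most 4 low-mt barcode sequences were shared, and at most 8 were cell barcodes in another library. No low-mt barcode sequence lay 1 base from a cell barcode of its own library. No doublet caller was run, and the cell barcodes reach 691565 UMIs in replicate 4, so that class may hold doublets.

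The values that chose the low-mt barcodes are given as a description. Their median total was 789 UMIs in replicate 1, 1019 in replicate 2, 938 in replicate 3 and 675.5 in replicate 4, against medians of 28455 to 31372 UMIs in the cell barcodes. Their median mt- share was 0.928%, 1.07%, 0.693% and 0.163%, against 4.21% to 6.74% in the cell barcodes. Replicate 4 stood lowest, with 55 of its 188 low-mt barcodes holding no mt- UMI at all. Their median human share was 5.39%, 0.50%, 13% and 1.12%, against 0.188% to 0.975% in the cell barcodes, so replicates 1 and 3 carried more human RNA per low-mt barcode than replicates 2 and 4.

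**Figure D1:**
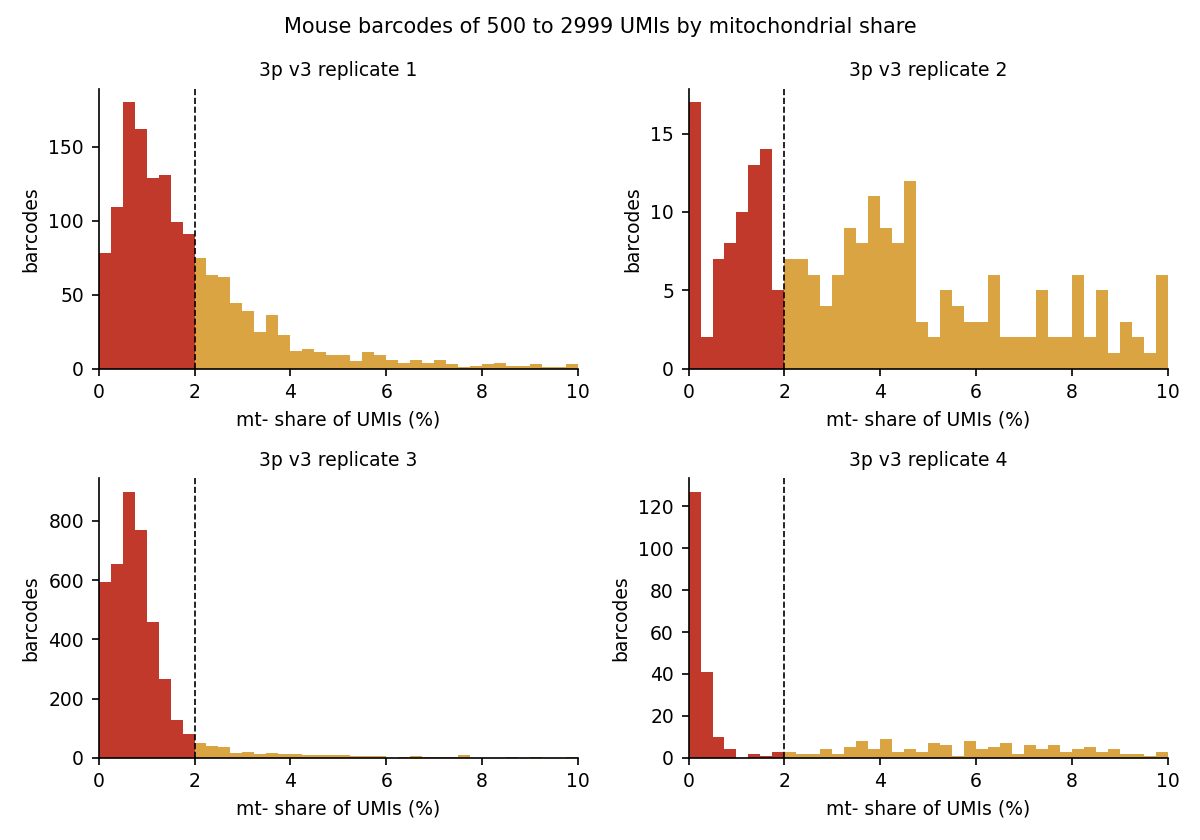
Histograms of the mt- share (percent of all UMIs, x axis) of barcodes with 500 to under 3000 UMIs and over 80% mouse UMIs, with the number of barcodes on the y axis and 1 panel for each 3′ v3 replicate; the line marks the 2% limit. In replicate 3, 3851 of 4378 such barcodes lie below the line, whereas in replicate 2 it is 76 of 271.

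In replicates 1 to 3 the limits of the rule did not fall in gaps. In replicate 4 few barcodes lay at the limits: 4 at an mt- share of 1.5% to 2% and 5 at 2% to 2.5%. On the mouse share that library had 1 barcode at 80% to 85% and 0 at 75% to 80%. In replicate 1, 190 low-mt barcodes had an mt- share of 1.5% to 2% and 138 barcodes lay just outside at 2% to 2.5%, with summed Malat1 levels of 739 and 1401 CPM. In replicate 3 the same bands held 207 and 90 barcodes, at 1548 and 2529 CPM. On the mouse share, replicate 3 had 1496 barcodes at 80% to 85% and 1055 just outside at 75% to 80%, at 1608 and 1624 CPM of Malat1. Of all barcodes in this UMI range in replicate 3, 2987 of 8522 were 20% to 80% mouse, against 1188 of 3687 in replicate 1, 56 of 583 in replicate 2 and 48 of 1081 in replicate 4. The low-mt barcodes of replicates 1 and 3 therefore border on a large number of mixed-species barcodes. Replicate 2 had few in number but many for its size, with 56 beside 76 low-mt barcodes. At its mouse limit 8 barcodes lay at 80% to 85% and 9 at 75% to 80%. In replicate 4 there were few for its size as well, with 48 beside 188 low-mt barcodes.

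The low-mt barcodes were not rich in nuclear RNA. Malat1 and Neat1, the genes meant to mark them, were both lower in the low-mt barcodes than in the cell barcodes in all 4 libraries, so the barcodes are described by the rule that chose them and not as nuclei. The comparison of low-mt with cell barcodes covered 11252 mouse genes, of which 610 (5.42%) were higher and 1252 (11.1%) lower in the low-mt barcodes, and any list below is to be read against those shares. Without replicate 1 there were 58 and 249, without replicate 3 there were 34 and 84, and without the library block 3 and 45. Replicates 1 and 3 hold the most low-mt barcodes. The median log2 fold change over all genes tested was -0.05.

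Malat1 stood at 1352, 6119, 1974 and 2245 CPM in the low-mt barcodes of replicates 1 to 4 and at 3272, 7345, 6061 and 7904 CPM in the cell barcodes. The low-mt barcodes were lower in every library, with the smallest gap in replicate 2, and the ranges of the 2 classes overlapped through that library. The log2 fold change was -1.13 (SE 0.16, adjusted p = 6.54e-10, edgeR's quasi-likelihood test with library as a block). Without the block it was -1.05 with adjusted p = 0.132, and in replicates 2 and 4 alone -1.03 with adjusted p = 0.222.

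Neat1 stood at 39.5, 162, 33.0 and 34.8 CPM in the low-mt barcodes, from 37, 14, 110 and 5 UMIs, and at 156, 287, 122 and 292 CPM in the cell barcodes. Its log2 fold change was -1.71 (SE 0.19, adjusted p = 6.22e-16). Kcnq1ot1, an imprinted antisense RNA that stays at its own locus, stood at 36.3, 185, 13.2 and 6.95 CPM against 135, 290, 101 and 309 CPM in the cell barcodes. Its log2 fold change was -2.16 (SE 0.20, adjusted p = 1.02e-22), and its adjusted p without the library block was 0.0728. Replicate 2 was the highest of the 4 libraries for all of Malat1, Neat1 and Kcnq1ot1 in the low-mt barcodes.

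Of the 18 nuclear-retained RNAs listed, 13 were in the reference and 8 had enough counts to test. Malat1, Neat1 and Kcnq1ot1 fell, and none of the 8 rose. Ftx and Jpx, noncoding genes of the X-inactivation centre, had log2 fold changes of -0.27 and -0.84, Pvt1, the noncoding neighbour of Myc, -0.63, Airn, another imprinted antisense RNA, -1.06, and Mir155hg, the host of miR-155, -0.84, and none of these passed the test. Meg3, Xist, Tsix, Miat and Mirg were at or near 0 and were not tested. The list's median log2 fold change was -0.95, beside -0.05 over all genes.

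**Figure D2:**
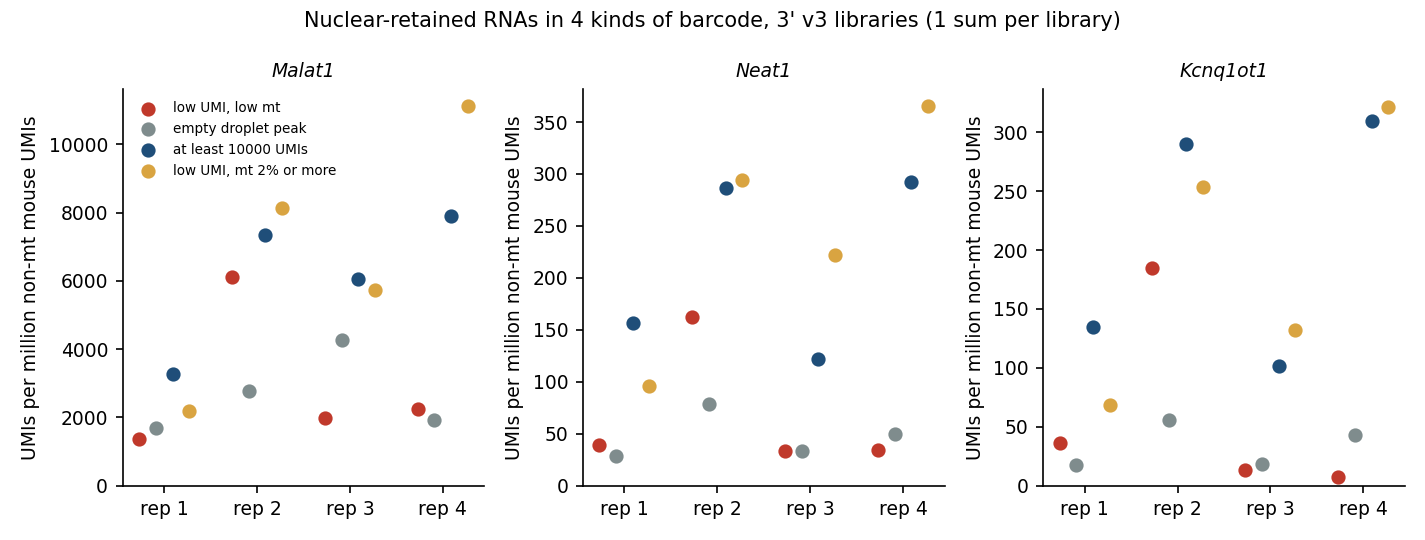
Malat1, Neat1 and Kcnq1ot1 levels (CPM, linear axis) in low-mt barcodes, the empty droplet peak, cell barcodes and mt-rich low-UMI barcodes, with 1 point for each 3′ v3 library. For all 3 RNAs the low-mt point of each library lies below its cell point, for Malat1 by the least in replicate 2 (6119 against 7345 CPM).

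The share of single barcodes with Malat1 showed the same order at equal depth. After each barcode was thinned to 400 mouse UMIs outside the mitochondrial genome, which left out 1 low-mt barcode, 26.1%, 65.8%, 50.01% and 43.6% of low-mt barcodes had a Malat1 UMI, against 61.2%, 81.7%, 81.1% and 84.8% of cell barcodes. Unthinned, the low-mt shares were 42.2%, 72.4%, 75.1% and 55.3%. As a background level, 17.2%, 15.6%, 68.4% and 29.4% of human barcodes of the same UMI range, which should hold no mouse Malat1, had a UMI of it, at median depths of 1720.5 to 2266.5 UMIs. Those human barcodes are under 20% mouse, so their depth in mouse UMIs was not matched to that of the low-mt barcodes, which are over 80% mouse. The unthinned low-mt share was higher in each library, by the least in replicate 3. With unlike mouse depth, this cannot show whether low-mt barcodes held more Malat1 than the background. Within the low-mt barcodes Malat1 was uneven: the 5 barcodes with most of it held 17.0%, 25.3%, 10.5% and 42.4% of its UMIs, and single barcodes held 118 of 1266 UMIs in replicate 1 and 239 of 6577 in replicate 3.

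Transcripts with detained introns are processed slowly and wait in the nucleus, and they too were low in the low-mt barcodes. Of 28 tested, 14 fell and none rose, with a median log2 fold change of -0.48. Nktr, a cyclophilin with an arginine- and serine-rich tail, stood at 12.8, 116, 18.9 and 69.5 CPM against 75.4, 161, 70.9 and 167 CPM in cell barcodes (log2 fold change -1.59, SE 0.21, adjusted p = 5.68e-12). Tia1, an RNA-binding protein of stress granules, changed by -1.52, Ogt, the enzyme that adds O-linked N-acetylglucosamine, by -1.35, and Prpf38b and Pnisr, splicing-related proteins, by -1.23 and -1.14. Rbm39, a splicing factor, had the smallest fall that passed, at -0.48, and Ddx5, an RNA helicase, had a value of 0.33 that did not pass (adjusted p = 0.142). The call of Rbm39 was lost by DESeq2 (adjusted p = 0.18). By edgeR it was lost with over 95% mouse (-0.30, adjusted p = 0.368), with under 1% mt- (-0.47, 0.0569), without replicate 1 (-0.32, 0.514) and without replicate 3 (-0.38, 0.5). Together the list took 0.257%, 0.551%, 0.279% and 0.480% of UMIs in the low-mt barcodes and 0.423%, 0.577%, 0.432% and 0.584% in the cell barcodes, lower in 4 of 4 libraries. The number that fell was 5 without replicate 1, 16 without replicate 2, 5 without replicate 3 and 16 without replicate 4. The list's median was -0.48 without replicate 1 and -0.43 without replicate 3, so calls were lost and the size of the change was not.

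The genes whose counts follow ribosomal RNA went the other way. Of the 4 tested, Gm42418, Gm26917 and Lars2 rose, and AY036118 had a log2 fold change of 0.24 that did not pass. Gm42418 and AY036118 overlap a ribosomal RNA unit in the mouse genome, so their UMIs and those of the ribosomal RNA cannot be told apart. Gm42418 stood at 421, 1561, 1274 and 9023 CPM in the low-mt barcodes and at 196, 1208, 463 and 1389 CPM in the cell barcodes (log2 fold change 1.56, SE 0.17, adjusted p = 4.37e-18, or 0.155 without the library block). Single barcodes carried much of this. In replicate 4 a single barcode held 951 of the 1298 Gm42418 UMIs, and without the top 5 barcodes of each library the levels were 265, 1249, 1121 and 1592 CPM, still over the cell barcodes in each library, whose own top barcodes were kept. In the empty droplet peak, described below, Gm42418 stood at 875, 18830, 1503 and 9889 CPM, over the low-mt barcodes in each library.

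Gm26917 rested on few barcodes to a larger degree. Its level was 901, 254, 585 and 2739 CPM against 153, 452, 488 and 608 CPM in cell barcodes, a log2 fold change of 1.38 (adjusted p = 1.32e-12, but 0.289 by DESeq2 and 0.154 without the library block). It was 0.52 with under 1% mt-, 0.61 with at least 1000 UMIs, 0.62 with over 95% mouse and 0.78 without replicate 1. The 5 top barcodes held 90.9% of its UMIs in replicate 1 and 93.2% in replicate 4. Without them the levels were 82.2, 139, 484 and 188 CPM, below the cell barcodes in all 4 libraries, and the adjusted p was 0.0502 without replicate 1. The cell barcodes kept their own top barcodes in this comparison. In replicate 3 the UMIs were spread more widely, with 1225 of 3851 low-mt barcodes holding one and 17.4% in the top 5. Lars2, the mitochondrial leucyl-tRNA synthetase, stood at 20.3, 0, 36.9 and 313 CPM against 8.27, 27.8, 9.75 and 26.2 CPM, with a log2 fold change of 2.26 but a lower value than in cells in replicate 2. By DESeq2 Gm42418 alone of the 4 loci passed, and without the library block none did, so Lars2 lost its call in both.

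The lists of the respiratory chain, ribosomal proteins, translation factors and cytoskeleton held more rises than falls, though most of their members did not pass. The respiratory chain list was set by gene name and holds nuclear genes for its subunits and also for ATP synthase, cytochrome c and assembly factors. Of 89 genes of the list tested, 32 rose and Ndufaf4, an assembly factor of complex I, fell by 0.56 on the log2 scale. The list's median was 0.37. The list took 4.90%, 3.33%, 5.15% and 3.47% of UMIs in the low-mt barcodes and 4.0%, 3.06%, 4.17% and 3.08% in the cell barcodes. Cox6c, a subunit of complex IV, stood at 1958, 1180, 2228 and 1133 CPM against 1314, 1002, 1535 and 1024 CPM (log2 fold change 0.52, adjusted p = 0.0121, but 0.407 without replicate 1, 0.365 without replicate 3 and 0.319 with over 95% mouse). The barcodes were thus poor in mt- transcripts by choice, and at the same time not poor in the nuclear transcripts of the same protein complexes. The number that rose was 1 without replicate 1 and 0 without replicate 3, where the list's median was 0.30 and 0.34, and it was 55 without replicate 2 and 51 without replicate 4.

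Of 83 ribosomal protein genes tested, 14 rose and none fell, with a median of 0.22. Their summed share was higher in the low-mt barcodes in replicates 1, 3 and 4 (32.6%, 34.9% and 31.4% against 30.1%, 31.2% and 28.8%) and lower in replicate 2 (26.7% against 28.8%). Rplp1, a protein of the ribosomal stalk, had a log2 fold change of 0.15 that did not pass. Without replicate 1 or without replicate 3, 1 gene of the list rose, and without replicate 2 there were 51. The empty droplet peak, described below, was over the cell barcodes in all 4 libraries in the summed shares of ribosomal proteins (34.6%, 31.3%, 35.5% and 33.7%) and of the respiratory chain (4.75%, 3.85%, 4.88% and 3.71%). Against that peak no respiratory chain or translation factor gene rose in the low-mt barcodes, nor any ribosomal protein gene.

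Of 22 translation factors, 8 rose and 2 fell. Eif4a1, the helicase of the cap-binding complex, stood at 1999, 1723, 2027 and 1133 CPM against 1406, 803, 1299 and 755 CPM (log2 fold change 0.83, SE 0.16, adjusted p = 1.15e-05), higher in 4 of 4 libraries. Eif3a and Eif4g1, large scaffold proteins of initiation, fell by 0.66 and 0.45 on the log2 scale. Of 20 cytoskeletal genes, 6 rose and Lcp1, the actin-bundling protein plastin 2, fell by 0.73. Actb, beta-actin, stood at 9527, 4245, 6865 and 2343 CPM against 4061, 3094, 3354 and 2932 CPM, higher in replicates 1 to 3 and lower in replicate 4 (log2 fold change 0.74, adjusted p = 0.000159, but 0.365 without replicate 1 and 0.224 without replicate 3). With over 95% mouse its log2 fold change was 0.29 (edgeR adjusted p = 0.428). Of 14 glycolytic enzymes, Pgam1 alone rose, by 0.53 on the log2 scale, and Gapdh had a value of -0.08 (adjusted p = 0.793).

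Genes of the endoplasmic reticulum, which folds secreted and membrane proteins, gave 5 falls and 1 rise. Of 30 tested, those that fell were Dnajc3, a co-chaperone, Hsp90b1 and Hspa5, the main lumenal chaperones, Calr, the lectin chaperone calreticulin, and Rpn1, a subunit of the oligosaccharyltransferase, with log2 fold changes of -1.11, -0.86, -0.57, -0.58 and -0.51. Sec61g, a subunit of the translocon, rose by 0.44. Replicate 4 stood apart, with 69.5 CPM of Hspa5 in low-mt barcodes against 553 in cell barcodes, whereas replicate 1 had 439 against 465. Without replicate 4 the list had 3 rises and 2 falls, and without replicate 3 none of either.

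Histone genes were listed by kind. Replication-dependent histone mRNAs of the histone clusters lack a poly(A) tail as a rule, and of 50 tested 8 fell and 3 rose, the risers being Hist1h2ae, Hist1h4i and Hist1h2bc (0.62, 0.73 and 0.79), which are named after their values were seen. These shares lie near those of all genes, and the list's summed share was higher in 1 library and lower in 3. Hist1h2ap, a core histone H2A gene, stood at 65.2, 440, 220 and 299 CPM against 358, 619, 996 and 578 CPM (log2 fold change -1.51, adjusted p = 1.30e-14). Hist1h1b, a linker histone, stood at 92.9, 1087, 41.4 and 473 CPM against 163, 362, 205 and 408 CPM, so it was lower than in cells in the F libraries and higher in the G libraries. Of 9 polyadenylated histone variants, H2afj, H2afx and H3f3a rose (0.49, 0.60 and 0.63) and H2afy, the gene of macroH2A, fell by 0.52. H3f3a, which encodes the replacement histone H3.3, stood at 1535, 1122, 1301 and 1196 CPM against 1156, 763, 1026 and 723 CPM. Without replicate 1 or without replicate 3 no variant rose, and 2 and 1 clustered histone genes fell. Under the same omissions 1 translation factor and 1 cytoskeletal gene rose.

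**Figure D3:**
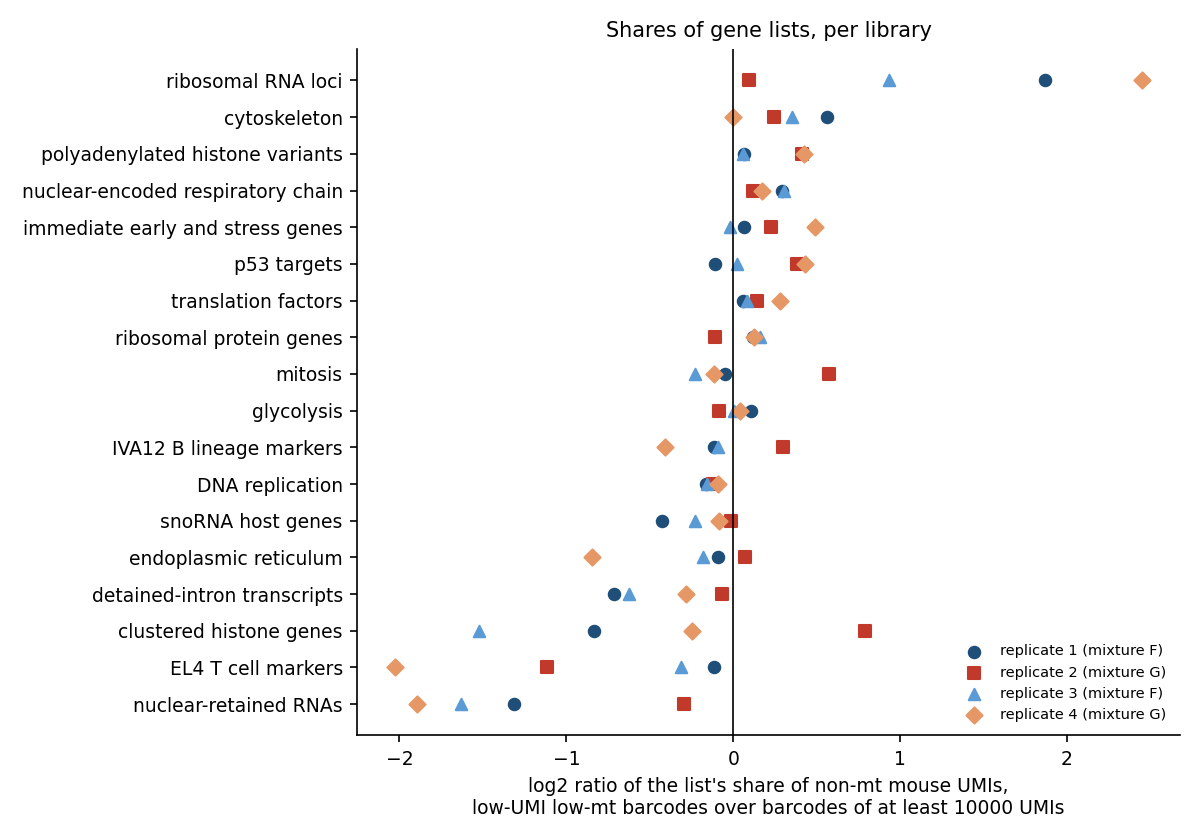
The log2 ratio of each gene list's share of UMIs in low-mt barcodes to its share in cell barcodes (x axis), with 1 point for each 3′ v3 library and lists in lines down the y axis. The nuclear-retained and detained-intron lists lie below 0 and the respiratory chain, translation factor and cytoskeleton lists above 0 in all 4 libraries.

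As summed shares, 10 of 19 lists moved the same way in all 4 libraries. Nuclear-retained RNAs, detained-intron transcripts, snoRNA host genes, DNA replication genes and EL4 markers were lower, and the ribosomal RNA loci, translation factors, polyadenylated histone variants, respiratory chain and cytoskeleton were higher. For each of these the exact sign-flip permutation test (two-sided) gave p = 0.13, the smallest that 4 libraries allow, or 0.238 after Benjamini-Hochberg adjustment over the 19 lists. No list could therefore pass on its summed share, and the gene-by-gene calls are the test.

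Scaling moved the balance of calls. The share of calls that were higher was 32.8% with TMM scaling and 9.39% with total counts alone, when 230 genes (2.04%) were higher and 2220 (19.7%) lower and the median of all genes was -0.26. With that scaling the list medians were -0.65 for detained-intron transcripts, 0.21 for the respiratory chain, 0.10 for ribosomal proteins and 0.10 for translation factors, so these kept their signs, and those of glycolysis, DNA replication, mitosis and the IVA12 markers turned negative (-0.05, -0.16, -0.17 and -0.18).

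Cell cycle, stress and p53 genes were called in both directions. Of 20 DNA replication genes, Uhrf1, Lig1 and Hells fell and none rose, with no call without replicate 1 or without replicate 3. Of 22 mitosis genes 5 rose and 4 fell, with 1 call in all without replicate 1 and none without replicate 3. Of 17 immediate early and stress genes, Atf4, Ddit3 and Ddit4, targets of the integrated stress response or part of it, rose, and the early transcription factor genes Fosb, Egr1 and Jun fell. Without replicate 1 no gene of the list rose and 1 fell, and without replicate 3 none rose or fell. Jun's fall of 0.59 on the log2 scale was not stable, since Jun stood at 16.0, 127, 19.8 and 104 CPM against 42.0, 52.4, 51.0 and 52.7 CPM, lower in the F libraries and higher in the G libraries, and its log2 fold change was 0.02 without replicate 1 and 0.25 without replicate 3. Of 13 p53 targets, Mdm2, the ubiquitin ligase of p53, rose by 0.45 and Zmat3, an RNA-binding protein, fell by 1.09, and without replicate 1 or without replicate 3 no p53 target passed. Mdm2 also missed the threshold without replicate 4 (adjusted p = 0.0886) and by DESeq2 (0.0555). Of 5 snoRNA host genes tested none passed, nor did Cd68 or Gp9, the 2 tested of 19 markers of red cells, platelets, macrophages and fibroblasts.

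The genes with the largest differences at 100 CPM or more and with the same direction in 4 of 4 libraries were Gm42418 and 9 others. Sub1, a transcriptional coactivator, led the latter at 2160, 1770, 2345 and 2280 CPM against 1643, 883, 1616 and 874 CPM (log2 fold change 0.94, SE 0.16, adjusted p = 3.61e-07). It was followed by 1110059E24Rik (0.91), Mrpl22, a mitochondrial ribosomal protein (0.90), Thyn1 (0.89), 1190007I07Rik (0.87), Magoh, a core protein of the exon junction complex (0.85), Rsl24d1, a ribosome assembly factor (0.85), Eif4a1 (0.83) and Psma5, a proteasome subunit (0.82). For Sub1, the gap to the cell barcodes was wide in replicates 2 and 4 and narrower in replicates 1 and 3, and the empty droplet peak described below stood at 2789, 2080, 2756 and 2017 CPM, over the cell barcodes as well. For each gene listed after Sub1 the peak was also over the cell barcodes in 4 of 4 libraries, as for Magoh at 394, 244, 312 and 244 CPM against 308, 138, 269 and 140 CPM. Neither Sub1 nor any of them passed the edgeR test against the peak. 1190007I07Rik lost its call without replicate 1 (adjusted p = 0.238) and without replicate 3 (0.0755).

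At the other end stood Ikzf2, the T cell transcription factor Helios, at 41.7, 57.8, 52.5 and 0 CPM against 271, 192, 211 and 192 CPM (log2 fold change -2.18, SE 0.20, adjusted p = 4.40e-24). The classes did not overlap, and the empty droplet peak stood at 40.6, 81.0, 36.9 and 49.7 CPM, also below the cell barcodes. Pou2f2, a B cell transcription factor, stood at 56.6, 92.5, 46.8 and 55.6 CPM against 241, 399, 201 and 398 CPM (log2 fold change -2.02, adjusted p = 9.21e-23), again without overlap. Kcnq1ot1, described above, lay between these genes in size. Neat1, Nktr and Hist1h2ap followed, then Fyb, a T cell adaptor (-1.48), Ankrd11, a chromatin regulator (-1.37), Clspn, the replication checkpoint protein claspin (-1.37), and Ppp3ca, the catalytic subunit of calcineurin (-1.33).

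The 2 mixture preparations gave different numbers of calls. In replicates 1 and 3 alone 1370 genes (11.2% of 12208) were higher and 1887 (15.5%) lower, and in replicates 2 and 4 alone 28 (0.247% of 11358) were higher and 67 (0.590%) lower, on 76 and 188 low-mt barcodes. The difference of the fold changes between preparations passed the test for 181 of 11252 genes (1.61%). Neither Malat1 nor Neat1 was among them: the change of Malat1 was -1.26 in F and -1.03 in G (adjusted p of the difference 0.827) and that of Neat1 was -1.71 and -1.76 (0.940). With 2 libraries a preparation, what belongs to the preparation and what to the number of barcodes cannot be told apart.

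The next question was how the low-mt barcodes compare with barcodes that held no cell. These were taken in 2 ways. The low-count bin took all barcodes of 1 to 99 UMIs, which number 522631 to 1535583 a library, so that most hold a few UMIs and are not shown to be droplets. The empty droplet peak, chosen after the data were seen, took barcodes within 1.5-fold of the most common total from 10 to under 500 UMIs, which was 90.3, 20.8, 292 and 55.4 UMIs in replicates 1 to 4. In replicates 2 and 4 the peak therefore lies within the low-count bin, and in replicate 1 it overlaps the bin in part, so there the bin and the peak share barcodes. In replicate 3 the peak lies above the low-count bin and nearest to the lower limit of the low-mt barcodes. Human UMIs made up 6.64%, 9.80%, 5.76% and 5.67% of the peak and 13.7%, 12.2%, 31.8% and 9.61% of the low-count bin, beside 31.6%, 13.3%, 30.2% and 15.5% of the whole libraries. In replicate 3 the bin is thus as human as the whole library and unlike the peak, and results against the bin are not to be read as results against the RNA of empty droplets.

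Against the low-count bin, 3 of 8604 genes (0.0349%) were higher in the low-mt barcodes and 65 (0.755%) lower. Those higher were Rpgrip1, Slc24a5 and Gm9844, which are named after their values were seen. Neat1 (-1.63, adjusted p = 6.37e-06) and Kcnq1ot1 (-1.63) were lower over all libraries, and Malat1 had a value of -0.76 that did not pass (adjusted p = 0.167). In replicate 2 Neat1 and Kcnq1ot1 were above the bin, at 162 against 147 CPM and 185 against 98.2 CPM. In replicate 3, whose bin is unlike its peak, they stood at 33.0 against 286 CPM and 13.2 against 198 CPM. Ikzf2 (-1.66), Pou2f2 (-1.47), Trim44 (-1.37) and AY036118 (-1.26) were among those that fell. Without replicate 3 no gene passed in either direction (unadjusted p under 0.05 for 100 genes higher and 162 lower). The log2 fold changes without it were -1.49 for Ikzf2, -1.09 for Pou2f2, -0.90 for Trim44 and -1.33 for AY036118.

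No nuclear-retained RNA passed the test against the empty droplet peak. Malat1 stood at 1692, 2765, 4265 and 1927 CPM in the peak, against 1352, 6119, 1974 and 2245 in the low-mt barcodes, lower in replicates 1 and 3 and higher in replicates 2 and 4 (log2 fold change -0.14, SE 0.21, adjusted p = 0.819). The higher value in replicate 4 rests on few barcodes. Without the 5 low-mt barcodes with most Malat1 it was 1293 CPM there, below the peak, and 4569 CPM in replicate 2, still above it. The peak kept its own top barcodes. Neat1 stood at 28.5, 78.2, 33.8 and 50.1 CPM in the peak (0.15, SE 0.21, adjusted p = 0.808). None of 6 nuclear-retained RNAs and none of 28 detained-intron transcripts passed, where 56 of 8203 genes (0.683%) were higher and 11 (0.134%) lower. A p-value that misses the threshold does not show that the levels are alike.

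Among the genes higher than in the peak were T cell membrane genes. Cd3e, a chain of the T cell receptor complex, stood at 153, 34.7, 85.2 and 13.9 CPM in the low-mt barcodes against 34.5, 37.4, 23.6 and 33.1 CPM in the peak (log2 fold change 1.55, adjusted p = 0.0107), higher in the F libraries and lower in the G libraries. Cd5, a coreceptor of the T cell receptor, and Cd247, its zeta chain, rose by 1.48 and 1.53, which makes 3 of 17 EL4 markers tested. The EL4 markers Cd3d and Lat did not pass, and were over the peak in the F libraries and below it in the G libraries. No fit against the peak was run with a replicate left out, within a preparation or by DESeq2. Actb also rose, by 0.96. Below the peak were Ccdc59 (-0.85), Slpi, a secreted protease inhibitor (-0.77), Mrps15, a mitochondrial ribosomal protein (-0.76), Ifi27l2a, an interferon-induced gene (-0.68) and Zcrb1, a protein of the minor spliceosome (-0.65), and the ribosomal protein gene Rps26 (-0.54). Mrps15 stood at 190, 150.4, 190 and 195 CPM against 308, 244, 299 and 309 CPM in the peak, without overlap.

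Set beside mt-rich barcodes of the same UMI range, the low-mt barcodes again held less nuclear RNA. Of 4401 genes tested none (0%) was higher in the low-mt barcodes and 163 (3.70%) were lower. At an unadjusted p under 0.05, 242 genes were higher by edgeR. DESeq2 called none higher, with 175 at an unadjusted p under 0.05. Other settings did give genes that were higher: 35 without replicate 1, 51 without replicate 4, 23 with over 95% mouse, 14 with at least 1000 UMIs and 56 with no count filter. Malat1 stood at 2177, 8142, 5733 and 11129 CPM in the mt-rich barcodes, over the low-mt barcodes in each library (log2 fold change -1.23, SE 0.24, adjusted p = 0.0209). Neat1 stood at 95.5, 294, 222 and 365 CPM (-2.08, adjusted p = 0.00991), and Kcnq1ot1 at 68.8, 254, 132 and 321 CPM (-2.15, adjusted p = 0.0296, or 0.189 by DESeq2). All 3 nuclear-retained RNAs tested thus fell.

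The 4 ribosomal RNA loci fell too in this comparison, with log2 fold changes of -2.60 for Gm26917, -1.70 for Lars2, -1.39 for Gm42418 and -0.96 for AY036118. Gm42418 stood at 1197, 7576, 2979 and 14048 CPM in the mt-rich barcodes, over the low-mt level in all 4 libraries. Of 30 endoplasmic reticulum genes 11 fell, with a list median of -0.91, among them Dnajc3 (-1.59), Hspa5 (-1.42) and Calr (-1.26). Hspa5 stood at 439, 567, 297 and 69.5 CPM in the low-mt barcodes and 628, 842, 1175 and 660 CPM in the mt-rich ones, without overlap. Of the EL4 markers Cd28, Bcl11b and Cd3d fell (3 of 12), and of the detained-intron transcripts 3 of 27. Ikzf2 (-2.54) and Jun (-2.20) were the other leading genes. The number lower was 1 without replicate 2 and 1 without replicate 3, 309 without replicate 1 and 316 without replicate 4. Neat1, Kcnq1ot1, Ikzf2 and Jun lost their calls without replicate 2 (log2 fold changes of -2.32, -2.57, -2.69 and -2.25) and without replicate 3 (-1.68, -1.53, -2.53 and -1.88), with their directions kept. Malat1 also lost its call in both, since the 1 gene left was Gm26917.

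The mouse lines were then compared. EL4 is marked by T cell genes and IVA12 by B lineage genes, and a barcode with RNA of a single cell should hold markers of a single line. After thinning to 400 UMIs and among barcodes with at least 3 marker UMIs, markers of both lines were found in 44.4% of low-mt barcodes in replicate 1 (118 of 266, exact 95% binomial interval 38.3% to 50.6%), 23.1% in replicate 2 (3 of 13, 5.04% to 53.8%), 68.9% in replicate 3 (583 of 846, 65.7% to 72.0%) and 33.3% in replicate 4 (5 of 15, 11.8% to 61.6%). In cell barcodes it was 10.8%, 8.37%, 11.5% and 10.4%. The low-mt barcodes were higher in 4 of 4 libraries by a mean of 32.2 percentage points (SD 18.5, n = 4; exact sign-flip permutation test, two-sided, p = 0.13, the smallest possible). The intervals, which cover counting error only, lie apart from those of the cell barcodes in replicates 1 and 3. In replicates 2 and 4 they overlap, where 13 and 15 low-mt barcodes entered. In mt-rich barcodes it was 42.9%, 16.0%, 45.9% and 7.27%.

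The low-mt barcodes also held human RNA, at the median shares given above, which the rule limits. Among low-mt barcodes over 95% mouse, the mean difference from cell barcodes was 18.8 percentage points. The part of free RNA in this difference was not tested.

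**Figure D4:**
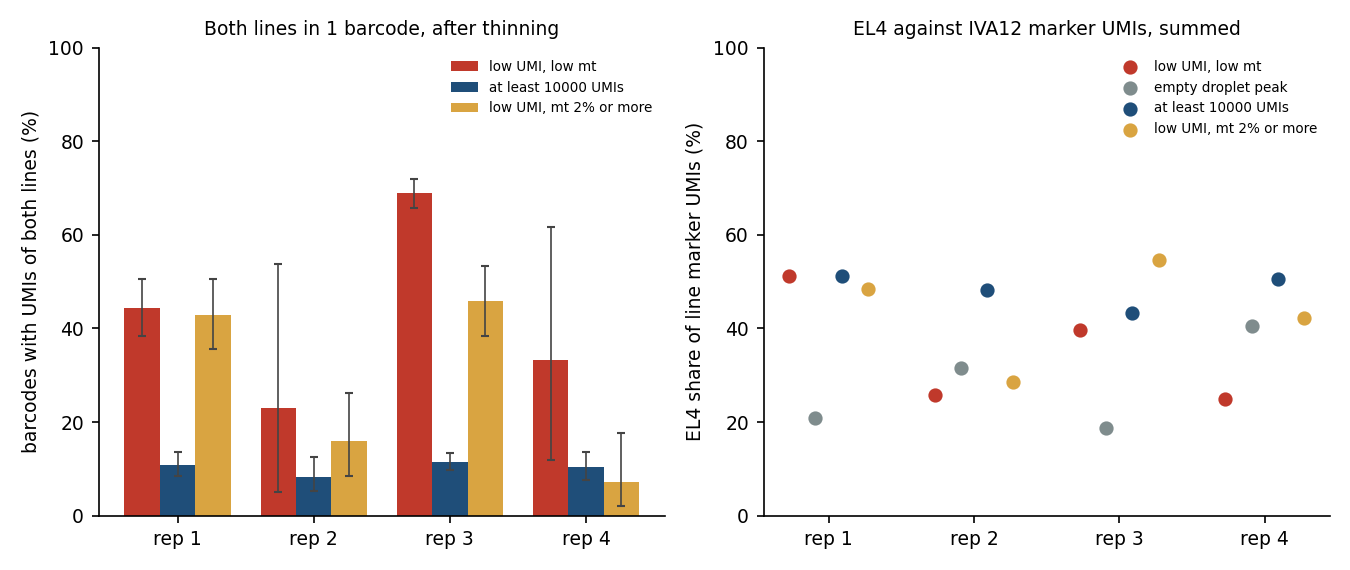
Left, percent of barcodes with marker UMIs of both mouse lines after thinning to 400 UMIs, in low-mt, cell and mt-rich low-UMI barcodes of each 3′ v3 library, with exact 95% binomial intervals as bars; right, the EL4 share of all marker UMIs (percent) in the same classes and the empty droplet peak. The low-mt barcodes of replicate 3 stand highest on the left (68.9%), and on the right the low-mt barcodes of replicates 2 and 4 (25.9% and 25%) lie below the cell barcodes (48.2% and 50.6%).

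Summed over barcodes, EL4 markers made up 51.2%, 25.9%, 39.6% and 25% of the UMIs of both marker lists in the low-mt barcodes and 51.2%, 48.2%, 43.3% and 50.6% in the cell barcodes. In the peak they made up 21.0%, 31.6%, 18.7% and 40.5%. The low-mt barcodes of the F libraries therefore lay near their cells and above their peak, and those of the G libraries lay below both. Of 18 EL4 markers tested against cell barcodes 6 fell and none rose, among them Cd28, a costimulatory receptor (-1.77), and the T cell transcription factors Bcl11b (-1.57), Gata3 (-1.14) and Tcf7 (-0.94). Cd3d, a chain of the T cell receptor complex, stood at 548, 81.0, 415 and 69.5 CPM against 483, 209, 446 and 227 CPM, with no call over all libraries (-0.18). Of 16 IVA12 markers Blnk, a B cell receptor adaptor, rose by 0.49, and Ebf1 and Ms4a1, a B lineage transcription factor and the gene of CD20, fell by 1.5 and 0.74, and none passed without replicate 1 or without replicate 3. Jchain, the joining chain of secreted antibodies, stood at 1161, 1538, 1197 and 626 CPM against 1198, 976, 1311 and 876 CPM and did not pass.

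The number of genes seen at equal depth was slightly lower. At 400 UMIs the median number of mouse genes detected was 287, 306, 285 and 293 in low-mt barcodes and 297, 308, 295 and 307 in cell barcodes, a mean difference of -9.00 genes (SD 5.03, n = 4), lower in 4 of 4 libraries (exact sign-flip permutation test, p = 0.13, the smallest possible).

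As a description of likeness over whole profiles, the Pearson correlation of log2(CPM + 1) across genes, which are not independent replicates and share each library's depth, was taken over 1349, 1556, 1361 and 1506 genes. Between low-mt and cell barcodes it was 0.961, 0.924, 0.959 and 0.856, between low-mt barcodes and the peak 0.962, 0.921, 0.975 and 0.949, between low-mt barcodes and the low-count bin 0.969, 0.931, 0.934 and 0.939, and between low-mt and mt-rich barcodes 0.979, 0.906, 0.948 and 0.750. Replicate 4 was nearer to the peak and to the low-count bin than to the cells. Replicate 3 was nearer to the peak than to the cells but nearer to the cells than to the low-count bin, and in replicates 1 and 2 the values for cells, peak and bin were close.

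The low-mt barcodes also varied within a library. In replicate 1, 626 barcodes under 1000 UMIs had a Malat1 level of 729 CPM and a median human share of 7.70%, 269 barcodes of 1000 to under 2000 UMIs had 1698 CPM and 1.38%, and 84 barcodes of 2000 UMIs or more had 1951 CPM and 0.826%. A single barcode held 118 of the Malat1 UMIs of the last band, whose order to the middle band rests on it. In that library the low-mt barcodes under 1000 UMIs thus had the lowest Malat1 level and the most human RNA. In replicate 3 there was no such order: Malat1 was at 2366, 1483 and 3443 CPM in the same bands, and the median human share was 11.4%, 14.6% and 8.59%. There too a single barcode held 239 of the 669 Malat1 UMIs of the last band. In replicate 4 the 168 barcodes with an mt- share under 0.5% had 1366 CPM of Malat1 and the 14 at 0.5% to 1% had 1519 CPM, whereas 2 barcodes at 1% to 1.5% had 24970 CPM and 4 at 1.5% to 2% had 22061 CPM. In replicate 4 the contrast rests on those 2 and 4 barcodes. In replicate 2 the 19 barcodes under 0.5% had 2042 CPM and the 23 at 1% to 1.5% had 7835 CPM. A single barcode held 24 of the 34 Malat1 UMIs under 0.5% in that library. Malat1 did not rise with the mt- share in replicates 1 and 3. From the lowest to the highest band it was at 871, 1976, 1159 and 739 CPM in replicate 1 and 2054, 2081, 1772 and 1548 CPM in replicate 3.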

How the data were processed

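Chromium libraries of an equal mixture of 4 lymphocyte lines were analysed, 4 made with the 3′ v3 kit and 3 with other kits. Replicate 1 of the 3′ v2 kit was not analysed here. Per the labels and the study's methods, the authors downsampled the reads of each library, counted UMIs with Cell Ranger 3.0.2 on a combined hg19 and mm10 reference (version 1.2.0 in the submitters' processing notes) and deposited raw UMI counts of all barcodes, library by library. The deposited counts cover 60736 genes, 27998 of them murine.

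From these, barcodes were classed by total UMIs, mouse share and mt- share, and the counts of each class were summed per library. Cells are not replicates, so the library was the unit (n = 4). The 13 mt- genes were left out of the sums. Genes were kept by edgeR's filterByExpr, scaled by TMM and tested by edgeR 4.0.16 (R 4.3.3, quasi-likelihood test, library as a block, Benjamini-Hochberg adjusted p under 0.05). CPM values carry no TMM scaling. Nothing says that the libraries came from separate cultures, so the spread between these libraries may be technical. edgeR shares the estimate of that spread across genes, so a p-value does not rest on a gene's own spread between libraries alone. The SE was 0.16 for Sub1, which was higher in every library, and also 0.16 for Actb, which was lower in replicate 4. Classes of a library share its cells and run, which is where the pairing comes from. Intervals are exact (Clopper-Pearson) and cover counting error only. On simulated data drawn from the low-mt against cell comparison (11003 genes), 29.9% of 1.5-fold, 86.6% of 2-fold and 100% of 4-fold changes were recovered, and 0.046% of unchanged genes were called. The simulation gave every gene the same spread and both classes the same library effects, and placed changes in the more abundant genes. It therefore does not measure false calls where a class difference varies between libraries, as it does in the real data.

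The barcodes and gene lists were chosen with earlier results of these data known. Named genes were the nuclear-retained list, the 2 most abundant genes of each other list, and the 10 (or, for the other comparisons, 5) largest and smallest changes past the threshold with at least 100 CPM and 1 direction in all 4 libraries. Other genes in the text are members of the lists that passed the test, or are said to be named after their values were seen. Alternatives were DESeq2 1.42.0, other limits of the classes, other scaling, no count filter, no block, each preparation alone and each replicate left out. No genome or mouse annotation was used, so no positions are given. A few named genes are not reported here.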

Additional observations from a re-analysis of the deposited data

Results flagged for a closer look

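Values that stood apart from the other 3 libraries of their kind were looked for in 88 sets of 4 values with Dixon's test, which chance alone passes in about 1 of 20 sets, so the 6 values found are near the number that chance gives. Among the low-mt barcodes, replicate 2 was above the others in the share of nuclear-retained RNAs (0.651% of UMIs), in Neat1 (162 CPM) and in Kcnq1ot1 (185 CPM), and below them in Mrps15 (150.4 CPM). Replicate 2 also has the fewest low-mt barcodes, 76. Replicate 4 was above the others in the ribosomal RNA loci (1.22% of UMIs) and in Gm42418 (9023 CPM), where a single barcode held 951 of 1298 Gm42418 UMIs.

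The change between low-mt and cell barcodes differed between the preparations, by the edgeR test of the difference, for 12 of 69 named genes. Over all genes tested it was 181 of 11252 (1.61%). Most named genes were chosen for abundance or for large changes in these data, so the 2 shares are not to be compared. As log2 fold change in G minus that in F, the difference was 2.38 for Hist1h1b, 2.26 for Jun, 1.31 for Hist1h2ap, 0.91 for Jund, an early transcription factor gene, 0.79 for Top2a, the mitotic DNA topoisomerase, and 0.77 for Nop56, a snoRNA host gene. It was -1.81 for Cd3d, -1.29 for Actb, -1.14 for Lat, a T cell adaptor, -1.08 for AY036118, -0.95 for Snhg6, another snoRNA host gene, and -0.90 for Slpi. The T cell genes Cd3d and Lat were thus lower against the cells in G than in F, and the histone genes higher. In G the low-mt barcodes are few, and what belongs to the preparation and what to these barcodes cannot be told apart.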

How the results depend on the processing

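Genes higher and lower than in cell barcodes numbered 610 and 1252, and under the alternatives 303 and 324 by DESeq2, 311 and 714 with at least 1000 UMIs, 160 and 463 with over 95% mouse, 3 and 45 without the replicate block, 1370 and 1887 in replicates 1 and 3, 28 and 67 in replicates 2 and 4, and 230 and 2220 with total counts alone. With 1 replicate left out they ranged from 34 to 913 and from 84 to 1489, lowest without replicate 3. Against the low-count bin the 3 and 65 became 56 and 11 with the empty droplet peak, 0 and 9 with over 95% mouse, 1 and 4 without the block, and 0 and 6 with total counts alone, and those lower were 7 by DESeq2 and 20 with at least 1000 UMIs. Leaving out a replicate gave 0 to 6 and 0 to 121. Against mt-rich barcodes the 0 and 163 became 14 and 252 with at least 1000 UMIs, 23 and 284 with over 95% mouse, 3 and 269 with under 1% mt-, and 56 and 356 with no count filter. There, 1 gene was higher with the mt- share taken over mouse UMIs, 58 were lower by DESeq2 and 0 without the block. Leaving out a replicate gave 0 to 51 and 1 to 316. The cause of these shifts was not tested, beyond the fewer libraries or barcodes that some alternatives use. Neat1, Ikzf2 and Pou2f2 kept their direction and their call against cell barcodes under the alternatives run for them.

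Signs turned for Jund (-0.26) and Cd3d (0.23) in replicates 1 and 3, for Jun with over 95% mouse (0.16), in replicates 2 and 4 (1.13) and with a replicate left out (-0.93 to 0.25, above 0 without replicate 1 or 3), and for Ifi27l2a in replicates 2 and 4 (-0.024). Differences in summed list shares turned, in percentage points, with a replicate left out for clustered histones (-0.0587 to 0.0183, above 0 without replicate 3), glycolysis (-0.00462 to 0.0324, below 0 without replicate 1), mitosis (-0.0468 to 0.0665, below 0 without replicate 2) and IVA12 markers (-0.0281 to 0.00588, above 0 without replicate 4, and 0.00292 with all mouse UMIs as denominator). Of the named genes against cell barcodes, 896 values kept direction and stayed on the same side of the threshold, which includes genes called in neither fit. A further 87 lost the call, 47 gained it and 7 turned sign as given above. Another 61, in 20 genes such as Hist1h1b, Nop56 and Snhg6, turned sign with no call in either fit. The difference in barcodes with both lines ranged from 18.8 to 38.0 percentage points and that in genes per barcode from -7.33 to -11.3 under the alternatives run. Depth limits replicates 2 and 4, where Neat1 rests on 14 and 5 UMIs.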

Other observations

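A pair of genes with no known role in lymphocytes stood high in the low-mt barcodes, and they are named after their values were seen. Rpgrip1, a protein of the photoreceptor connecting cilium, stood at 206, 92.5, 136 and 20.9 CPM in replicates 1 to 4, against 26.6, 28.3, 22.6 and 25.98 CPM in cell barcodes and 20.4, 18.7, 13.8 and 24.5 CPM in the empty droplet peak (log2 fold change to cell barcodes 2.64, adjusted p = 1.69e-53 by edgeR). Slc24a5, a cation exchanger of pigment cells, stood at 137, 81.0, 133 and 20.9 CPM, against 26.2, 21.7, 26.8 and 19.1 CPM in cell barcodes and 29.4, 18.7, 24.4 and 24.8 CPM in the peak (2.38, adjusted p = 1.03e-42). Both were over the cell barcodes and the peak in replicates 1 to 3. In replicate 4, where 3 UMIs of each were counted, Rpgrip1 was below both and Slc24a5 lay between them. In contrast to Gm26917 their UMIs were spread out: 152 of 979 low-mt barcodes in replicate 1 and 417 of 3851 in replicate 3 had a Rpgrip1 UMI, with at most 5 in a barcode. In mt-rich barcodes Rpgrip1 stood at 97.4, 67.9, 99.3 and 96.7 CPM.

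Few barcodes of the other kits met the same limits: the 5′ v1 kit gave 40 and 12, and the 3′ v2 kit gave 10. Their Malat1 levels were 2499, 773 and 22007 CPM, against 1710, 1549 and 4723 CPM in the cell barcodes of the same libraries. With so few barcodes these are values of single libraries and were not tested.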
